A study of Mus musculus with 4 samples.

Results

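The receptors of the tumour necrosis factor (TNF) superfamily described here are 10 genes measured by RNA-seq in regulatory T (Treg) cells: Tnfrsf18, Tnfrsf4, Tnfrsf9, Tnfrsf1b, Tnfrsf14, Cd27, Tnfrsf25, Tnfrsf1a, Fas and Tnfrsf26. They were found by gene name among 13857 named genes, and for a gene with several transcript rows the row of highest mean was used. The cells were sorted from spleens of C57BL/6 mice in which Nsd2, a histone methyltransferase of lysine 36 of histone H3, was conditionally knocked out in Treg cells (cKO), and from wild-type (WT) mice. There were 2 cKO and 2 WT libraries, each holding RNA pooled from at least 3 mice and read as single 50 nt ends. The labels do not name the Cre driver, the deleted exons, or the age of the mice, and they give no treatment. Levels are RPKM, reads scaled by transcript length and library depth, so levels of different genes are compared per length. In bulk RNA, fewer cells of a type and less RNA per cell cannot be told apart.

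TNF receptors are membrane proteins with cysteine-rich repeats that bind trimeric ligands. Members without a death domain recruit TRAF adaptors and activate NF-kB, and in T cells they act as costimulatory receptors beside the T cell receptor. Members with a death domain can recruit FADD or TRADD and, depending on the cell, signal for death or for NF-kB. GITR, OX40, 4-1BB and TNFR2, the products of Tnfrsf18, Tnfrsf4, Tnfrsf9 and Tnfrsf1b, are known for their abundance on Treg cells, where they support the development, survival or expansion of the lineage.

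The libraries carried the transcripts that define Treg cells. Foxp3, which specifies the lineage, stood at 145 and 113 RPKM in cKO libraries, against 144 and 128 RPKM in WT libraries. Il2ra, Ctla4 and Ikzf2 were likewise between 60.9 and 146 RPKM in every library, and their groups overlapped. The targeted gene Nsd2 was at 3.46 and 4.27 RPKM in cKO libraries, against 6.82 and 7.44 RPKM in WT libraries, without overlap; its log2 fold change of -0.74 did not pass over all genes (limma, unadjusted p = 0.00297, adjusted p = 0.9998). Of 7 B cell markers, 4 had a row, with summed levels of 10.9 to 11.8 RPKM in cKO and 6.88 to 8.54 RPKM in WT; the others were not analysed here. All 8 myeloid and dendritic markers had a row. Their sums were 22.0 and 6.36 RPKM in cKO replicates 1 and 2, and 7.12 and 10.8 RPKM in WT replicates 1 and 2. Most of the sum in cKO replicate 1 was C1qa, C1qb, C1qc and Csf1r, at 6.1, 4.9, 5.7 and 3.1 RPKM. Lyz2 was between 0.80 and 1.09 RPKM, and Itgax at or under 0.06 RPKM, in every library. Of 6 CD8 T and NK markers, 5 had a row, with sums of 11.2 to 12.0 RPKM in cKO and 12.4 to 14.1 RPKM in WT. Most of these sums were Cd8b1 and Prf1, and of the markers with a row only Cd8b1 was lower in cKO without overlap. Cd8a was higher in cKO, at 0.34 and 0.39 RPKM, against 0.15 and 0.25 RPKM in WT. Of 5 erythroid markers, 4 had a row, with sums of 42.7 and 7.32 RPKM in cKO and 24.3 and 11.4 RPKM in WT. Of 4 stroma and endothelium markers, 3 had a row, with sums of 43.7 and 45 RPKM in cKO and 42.8 and 38.6 RPKM in WT that were nearly all Pecam1, and Col1a1 and Col1a2 were under 0.42 RPKM in every library. The part of these cells in the values below was not tested.

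The 10 receptors spanned a wide range of levels, and their order was nearly the same in every library. Cd27 was the highest at 170 ± 9.61 RPKM (mean ± SD over the 4 libraries), followed by Tnfrsf18 at 126 ± 9.88 and Tnfrsf4 at 110 ± 7.58 RPKM. Tnfrsf1b at 60.2 ± 4.55 and Tnfrsf25 at 51.6 ± 8.54 RPKM came next, and then Tnfrsf9 at 35.3 ± 1.08 and Tnfrsf14 at 31.8 ± 2.80 RPKM. Fas stood at 15.8 ± 2.48, Tnfrsf1a at 14.6 ± 0.624 and Tnfrsf26 at 8.70 ± 0.584 RPKM. These neighbours fell into steps. The ranges over the 4 libraries did not overlap between Cd27 and Tnfrsf18, Tnfrsf4 and Tnfrsf1b, Tnfrsf25 and Tnfrsf9, Tnfrsf14 and Fas, or Tnfrsf1a and Tnfrsf26. Within the steps the ranges overlapped. Tnfrsf18 nevertheless stood above Tnfrsf4, and Tnfrsf1b above Tnfrsf25, in 4 of 4 libraries, while Tnfrsf9 stood above Tnfrsf14 in 3 and Fas above Tnfrsf1a in 2.

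Among the 10550 genes that averaged 1 RPKM or more, which include all 10 receptors, Cd27 ranked 215, Tnfrsf18 ranked 306 and Tnfrsf4 ranked 354 by level. Of the 10 receptors, 5 lay in the top 10% of these genes, and Tnfrsf26 was the lowest at rank 6157. The levels of the 10 receptors summed to 665 and 610 RPKM in cKO libraries, against 632 and 589 RPKM in WT libraries. About 386 to 551 reads stood behind Fas, the receptor with the fewest, and about 5055 to 5365 behind Cd27, as estimated from the depth and the transcript length.

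**Figure D1:**
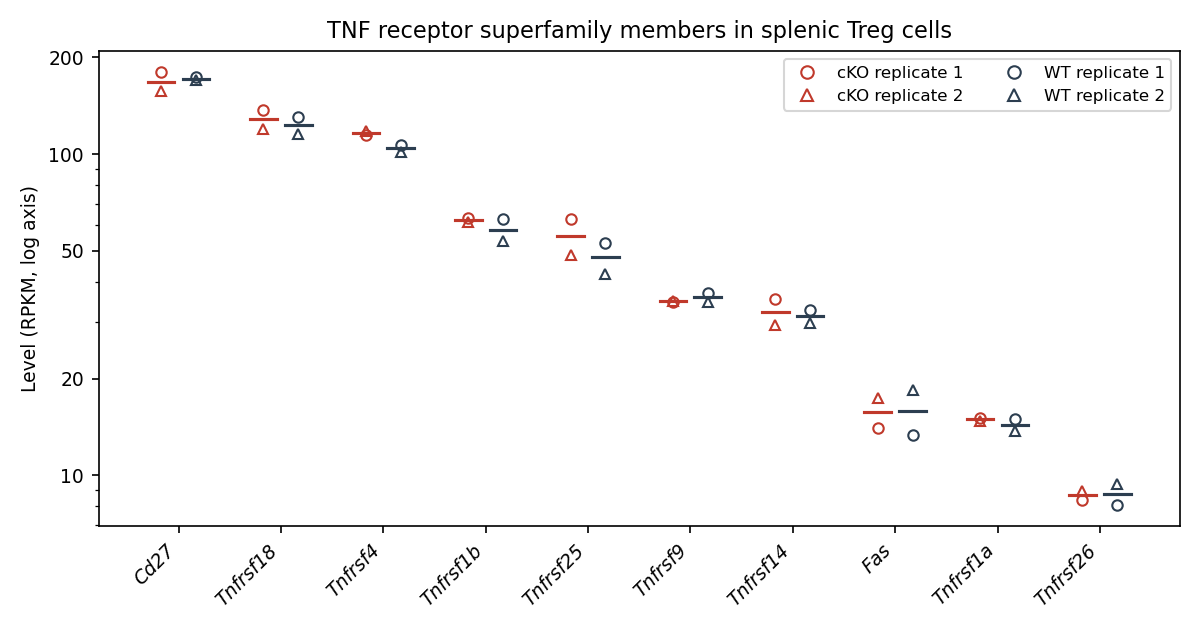
Level of each receptor gene (RPKM, log axis) in the 2 cKO (red) and 2 WT (dark) libraries; circles are replicate 1, triangles replicate 2 and bars the mean of each genotype. The receptors run from Cd27 at 157 to 180 RPKM down to Tnfrsf26 at 8.09 to 9.40 RPKM, and cKO and WT points overlap for every receptor except Tnfrsf4.

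No receptor passed the test of cKO against WT. The test was limma on log2(RPKM + 1), two-sided, with p-values adjusted over all 10550 genes, and at an adjusted p under 0.05 it called 0 of 10 receptors and 0% of all genes. At an unadjusted p under 0.05 it held 0 of 10 receptors and 3.15% of all genes, and leaving out a library called none of the receptors. This test had no term for the replicate number. Among the 10 receptors its lowest unadjusted p was that of Tnfrsf4, at 0.226 with limma, and the adjusted p of each receptor was 0.9998. For a single gene, an exact two-sided permutation test of 2 against 2 libraries cannot go below 0.333.

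For 9 of 10 receptors the cKO and WT values overlapped and the difference between the means was smaller than the larger SD within a genotype; the exception was Tnfrsf4. Both cKO values lay above both WT values for 1 of 10 receptors, against a background of 17.4% of genes, and below them for 0 of 10, against 9.01% of genes; either way it was 1 of 10, against 26.4% of genes. The share with groups that do not overlap was therefore not above that of genes in general. The median log2 fold change over the receptors was 0.049, beside 0.029 over all genes, and 6 of 10 receptors were above 0, beside 59.3% of all genes. That last share was 48.0% with median-of-ratios scaling. The counts above 0 given below for other lists likewise rest on the main scaling.

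The costimulatory receptors without a death domain included the 4 of highest level. Tnfrsf18 (GITR, at GRCm38.p6 chromosome 4, 156026322 to 156028894) was at 137 and 120 RPKM in cKO libraries, against 130 and 116 RPKM in WT libraries. In each genotype replicate 1 stood above replicate 2, and the genotypes overlapped. Its log2 fold change was 0.063 with a 95% interval from -0.28 to 0.41, so a change of up to 1.33-fold on the log2(RPKM + 1) scale lies inside the interval.

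Tnfrsf4 (OX40, chromosome 4, 156013595 to 156016613), whose product binds OX40 ligand on antigen-presenting cells, lies 9708 bases from Tnfrsf18 on the same strand. It was at 115 and 118 RPKM in cKO libraries, against 107 and 102 RPKM in WT libraries. This was the receptor whose genotypes did not overlap: the mean was 116 ± 2.37 RPKM in cKO and 104 ± 3.65 RPKM in WT (SD, n = 2 each), a ratio of 1.12. The log2 fold change was 0.16 with a standard error of 0.12 and a 95% interval from -0.13 to 0.45 (limma, unadjusted p = 0.226, adjusted p = 0.9998). For replicate number 1 alone it was 0.10, and for number 2 alone 0.22.

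Tnfrsf9 (4-1BB, chromosome 4, 150920155 to 150946104), a receptor induced by T cell activation, was the steadiest of the 10. It was at 34.6 and 34.9 RPKM in cKO libraries, against 36.9 and 34.7 RPKM in WT libraries. The log2 fold change was -0.041 with a 95% interval from -0.33 to 0.25. Its 3 transcript rows lay between 32.9 and 34.9 RPKM in cKO libraries and between 32.7 and 36.9 RPKM in WT libraries; rows of a gene share exons and are not separate measurements.

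Tnfrsf1b (TNFR2, chromosome 4, 145212368 to 145246870) is the TNF receptor without a death domain. It was at 63.2 and 61.3 RPKM in cKO libraries, against 62.9 and 53.5 RPKM in WT libraries. Only WT replicate 2 stood apart, below the other libraries. The log2 fold change was 0.10 with a 95% interval from -0.23 to 0.43. Tnfrsf1a (TNFR1, chromosome 6, 125349723 to 125362483), the TNF receptor with a death domain, was at 15.1 and 14.8 RPKM in cKO libraries, against 14.96 and 13.7 RPKM in WT libraries, with a log2 fold change of 0.056 and a 95% interval from -0.24 to 0.35. Tnfrsf1b exceeded Tnfrsf1a by 4.19 and 4.15 times in cKO libraries and by 4.2 and 3.9 times in WT libraries, per length.

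Cd27 (chromosome 6, 125232620 to 125237136), the receptor for CD70, was at 180 and 157 RPKM in cKO libraries, against 173 and 170 RPKM in WT libraries. The cKO values enclosed the WT values, and the log2 fold change was -0.030 with a 95% interval from -0.35 to 0.29. Tnfrsf14 (HVEM, chromosome 4, 154918487 to 154928620), which binds LIGHT and the inhibitory receptor BTLA, was at 35.3 and 29.3 RPKM in cKO libraries, against 32.7 and 29.8 RPKM in WT libraries. Again the cKO values enclosed those of WT, with a log2 fold change of 0.042 and a 95% interval from -0.32 to 0.40.

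Of the receptors with a death domain, Tnfrsf25 (DR3, chromosome 4, 152115528 to 152120119), the receptor for TL1A, was the highest and had the largest fold change of the 10. It was at 62.7 and 48.4 RPKM in cKO libraries, against 52.9 and 42.4 RPKM in WT libraries. The genotypes overlapped, since cKO replicate 2 lay below WT replicate 1. The mean was 55.6 ± 10.1 RPKM in cKO and 47.7 ± 7.42 RPKM in WT (SD, n = 2 each), and the log2 fold change was 0.21 with a 95% interval from -0.24 to 0.67. Within numbers 1 and 2 it was 0.24 and 0.19.

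Fas (chromosome 19, 34290647 to 34327775), the death receptor for Fas ligand, was at 14.0 and 17.4 RPKM in cKO libraries, against 13.4 and 18.4 RPKM in WT libraries. In both genotypes replicate 2 stood above replicate 1, and the log2 fold change was -0.0055 with a 95% interval from -0.48 to 0.47. Counting error was about 5.1% at the lowest number of Fas reads, less than the gap between replicates. The other Fas row, NM_001146708.1, was at 9.46 and 9.49 RPKM in cKO libraries, against 7.94 and 9.69 RPKM in WT libraries. It stood at 0.676 and 0.544 of the main row in cKO and at 0.593 and 0.527 in WT.

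Tnfrsf26 (chromosome 7, 143607685 to 143627845) is a mouse gene beside Tnfrsf22 and Tnfrsf23, which encode decoy receptors for TRAIL. It was at 8.37 and 8.92 RPKM in cKO libraries, against 8.09 and 9.40 RPKM in WT libraries. The WT values enclosed those of cKO, and the log2 fold change was -0.012 with a 95% interval from -0.35 to 0.33. The sources used here do not say how reads of related copies were divided.

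**Figure D2:**
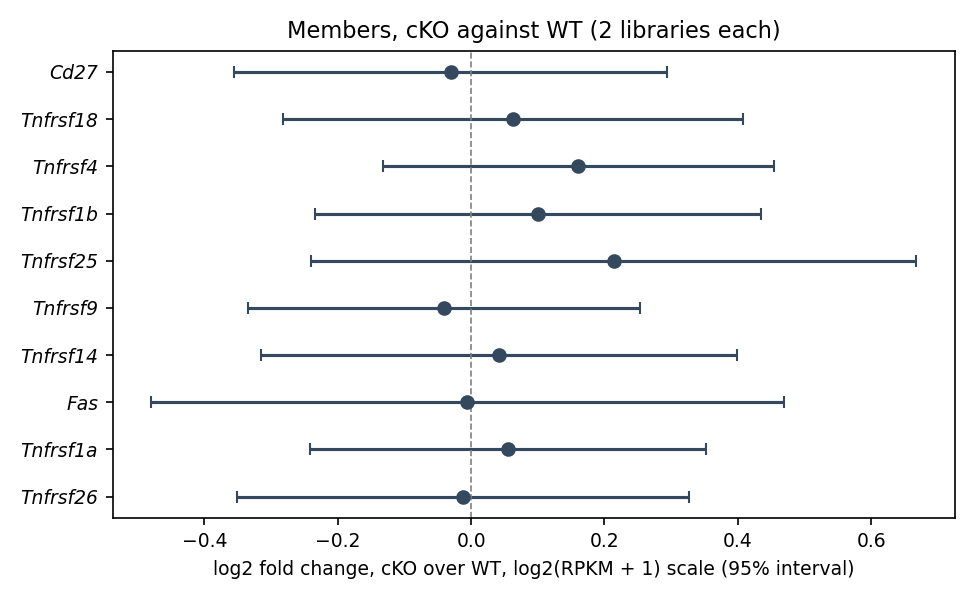
Log2 fold change of each receptor gene, cKO over WT, on the log2(RPKM + 1) scale, with the 95% interval from limma (2 libraries per genotype). In this main test, without a replicate block, the interval takes in 0 for 10 of 10 receptors. The estimates run from -0.041 for Tnfrsf9 to 0.21 for Tnfrsf25.

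Of the 10 genes, 6 lie on chromosome 4 within 10.8 Mb, and Tnfrsf1a and Cd27 lie near each other on chromosome 6. The annotation places other genes over part of 5 of them: Gm16008 opposite Tnfrsf18, Camta1 opposite Tnfrsf9, Vamp1 opposite Cd27 and Mir8113 on its strand, Sdf4 on the strand of Tnfrsf4 and Gm27818 on that of Fas. The sources used here do not say whether counting used strand, so reads of such partners cannot be told apart from those of the receptor.

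The sequences before the transcription starts are shown because most of these receptors share a short motif there. RefSeq windows of GRCm38.p6, 250 bases before to 50 bases after a start, were found for 9 of the 10 genes, 11 windows in all. The motif TTCNNNGAA, which reads alike on both strands and is the core bound by STAT factors, stood in 6 of these 11 windows, each of another gene, beside 8.30% of all 32851 promoter windows. It was chosen after the values and sequences had been seen, a match of letters is not a bound site, and binding was not measured. The matches are in capitals, each with its flanks, 5′ to 3′ on the strand of the gene. That of Tnfrsf18 begins 99 bases before the start, that of Tnfrsf9 136, that of Tnfrsf1a 244, that of Tnfrsf1b 181, that of Tnfrsf25 16 and that of Fas 93. These distances are to the start that each window is built on. For Tnfrsf9 and Tnfrsf25 that is an alternative start inside the gene, so their matches lie within the gene interval given above and not before it.
Tnfrsf18, chr4:156026213-156026241, plus strand: tgctctacacTTCACAGAAggcctttaca
Tnfrsf9, chr4:150927853-150927881, plus strand: caacagctgaTTCCAAGAAacccttcaga
Tnfrsf1a, chr6:125349473-125349497, plus strand: gcttccTTCCGTGAAattgacaaca
Tnfrsf1b, chr4:145247033-145247061, minus strand: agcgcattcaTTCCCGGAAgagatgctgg
Tnfrsf25, chr4:152116317-152116345, plus strand: gggcctccacTTCTCAGAAggcatggctg
Fas, chr19:34290556-34290584, plus strand: tcaaagcgatTTCTGGGAAgacctgaata

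Tnfrsf4, Tnfrsf14 and Cd27 had no match to this motif in their windows. The consensus decamer of NF-kB, searched on both strands, stood in 2 of the 11 windows, those of Tnfrsf9 and Tnfrsf25, beside 8.46% of all windows. In Tnfrsf9 it begins 43 bases before the start that its window is built on, and 2 overlapping matches are in capitals.
Tnfrsf9, chr4:150927947-150927975, plus strand: agagcagctGGGGATTTCCCaggaggccc
The AP-1 motif TGANTCA stood in 2 of the 11 windows, those of Tnfrsf9 and Fas, beside 7.81% of all windows, and the forkhead motif TGTTTAC in 0 of the 11, beside 3.65%. The whole stretch of 250 bases before the start of Tnfrsf18, chr4:156026072-156026321 on the plus strand, is given as that of the Treg receptor of highest level among those with the STAT-type motif, which is in capitals.
Tnfrsf18: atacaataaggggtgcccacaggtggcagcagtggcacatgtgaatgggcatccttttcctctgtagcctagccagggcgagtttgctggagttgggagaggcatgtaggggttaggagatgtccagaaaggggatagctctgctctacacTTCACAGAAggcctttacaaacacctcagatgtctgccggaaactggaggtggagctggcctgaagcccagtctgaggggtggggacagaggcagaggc

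Replicates of the same genotype differed in a way that followed the base composition of the transcripts. Between replicate 1 and replicate 2, 6 receptors had a positive log2 difference in both genotypes and 2, Fas and Tnfrsf26, a negative one in both; the same sign in both genotypes was seen for 77.5% of all genes. Tnfrsf25 had the highest GC content of the 10, at 58.3%, and log2 differences of 0.37 in cKO and 0.31 in WT. Fas had the lowest, at 43.4%, and log2 differences of -0.30 in cKO and -0.43 in WT. Tnfrsf26, at 44.0% GC, had differences of -0.083 in cKO and -0.19 in WT. Other receptors followed GC content less closely. Tnfrsf1a, at 55.9% GC, had differences of 0.028 in cKO and 0.12 in WT. Tnfrsf4, at 55.0% GC, had -0.041 and 0.071, and Tnfrsf9, at 47.8% GC, had -0.009 and 0.086.

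Over the 10049 genes with a GC content, the median difference between replicates ran from -0.29 in the lowest of 4 GC bins to 0.23 in the highest in cKO, and from -0.23 to 0.21 in WT. The correlation across genes was 0.69 in cKO and 0.64 in WT, as a description, since genes of a library share it and are not independent. After a correction of each library for GC content, the log2 fold change was 0.15 for Tnfrsf25 and 0.11 for Tnfrsf4, and neither passed the limma test (adjusted p = 0.689 and 0.826).

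**Figure D3:**
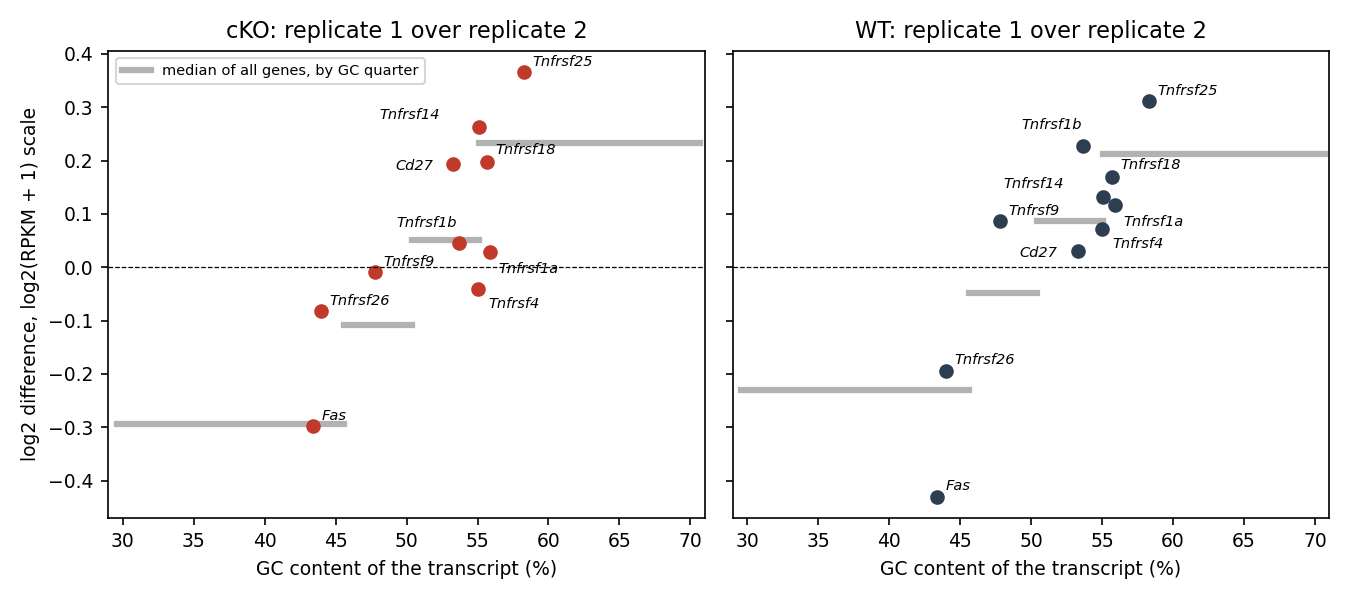
Log2 difference between replicate 1 and replicate 2 (log2(RPKM + 1) scale) against the GC content of the transcript, in cKO (left) and WT (right); points are the 10 receptor genes and grey bars the median of all genes in each of 4 GC bins. Tnfrsf25, at 58.3% GC, lies at the top in both panels and Fas, at 43.4% GC, at the bottom.

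Tnfrsf25 varied most over the 4 libraries, with an SD of 0.23 on the log2(RPKM + 1) scale. The genes with the most similar pattern over these libraries, by the distance between values centred on each gene's mean, were Septin1 at 0.0281, Snrnp35 at 0.0312, Aprt at 0.0335, Urm1 at 0.0336 and Trbv5 at 0.0339. Septin1, for example, was at 365 and 279 RPKM in cKO libraries, against 311 and 244 RPKM in WT libraries. Like Tnfrsf25, it stood higher in replicate 1 than in replicate 2 of both genotypes. These are the nearest of 10550 genes over only 4 values. Whether they vary with Tnfrsf25 beyond the replicate difference described above was not tested.

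Of 18 further TNF receptor genes, 13 had a row and 7 averaged 1 RPKM or more. Of these 7, 0 passed the limma test in either direction, 1 had cKO values above WT and 0 below, beside 17.4% and 9.01% of all genes, and 4 were above 0, beside 59.3% of all genes; their median log2 fold change was 0.059, beside 0.029 over all genes. Relt, a receptor of lymphoid tissue, was the highest at 22.6 and 16.2 RPKM in cKO libraries, against 18.9 and 17.1 RPKM in WT libraries. Tnfrsf8 (CD30), a marker of activated lymphocytes, was at 6.24 and 5.58 RPKM in cKO libraries, against 5.56 and 4.01 RPKM in WT libraries, so that its genotypes were barely apart (limma, unadjusted p = 0.184). Tnfrsf13b (TACI), best known as a receptor of B cells, was at 13.7 and 10.9 RPKM in cKO libraries, against 12.0 and 7.80 RPKM in WT libraries, with overlap. The summed level of the B cell markers was also higher in both cKO libraries, as given above. Most of it was Cd79b, at 8.03 and 7.14 RPKM in cKO libraries, against 5.56 and 4.23 RPKM in WT libraries. Cd79a and Cd22 were likewise higher in cKO. Cr2 was not, at 0.034 and 0.098 RPKM in cKO libraries, against 0.083 and 0.101 RPKM in WT libraries. The part of B cells in the Tnfrsf13b value was not tested. Tnfrsf22 was at 4.55 and 6.68 RPKM in cKO libraries, against 4.87 and 5.69 RPKM in WT libraries. Cd40 and Ltbr, typical of antigen-presenting and stromal cells, were at or under 0.35 RPKM in every library.

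The ligand genes of the superfamily were where the lowest p-values of the pathway lay. Of 18 ligand genes, 14 had a row and 10 were tested; 0 passed over all genes, 9 of 10 had a log2 fold change above 0, beside 59.3% of all genes, and 4 had cKO values above WT and 0 below, beside 17.4% and 9.01% of all genes. Their median log2 fold change was 0.12, beside 0.029 over all genes. Lta encodes lymphotoxin alpha, which binds both TNF receptors. It was at 46.0 and 43.1 RPKM in cKO libraries, against 31.4 and 28.9 RPKM in WT libraries. Both cKO values lay well above both WT values, with means of 44.5 ± 1.99 RPKM in cKO and 30.1 ± 1.71 RPKM in WT (SD, n = 2 each) and a ratio of 1.48.

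The log2 fold change of Lta was 0.55 with a standard error of 0.12 and a 95% interval from 0.24 to 0.85, and it did not pass over all genes (limma, unadjusted p = 0.00482, adjusted p = 0.9998). Within numbers 1 and 2 it was 0.54 and 0.56, and leaving out any library kept it between 0.49 and 0.61. Lta was named for its level and its low p in these same libraries, so this steadiness is no support for it. Tnf, the founding ligand, was at 19.5 and 19.3 RPKM in cKO libraries, against 15.3 and 13.4 RPKM in WT libraries, a ratio of 1.35. Its log2 fold change was 0.41 with a 95% interval from 0.11 to 0.72 (limma, unadjusted p = 0.017, adjusted p = 0.9998). Lta and Tnf are neighbours on chromosome 17, at 35203165 to 35205578 and 35199367 to 35202007.

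Ltb, the third gene of this cluster, encodes the membrane partner of lymphotoxin alpha and lies at 35194507 to 35196305. It was the most abundant ligand, at 659 and 528 RPKM in cKO libraries, against 602 and 487 RPKM in WT libraries, and its genotypes overlapped. Tnfsf8, the ligand of CD30, was at 25.1 and 30.6 RPKM in cKO libraries, against 22.8 and 31.0 RPKM in WT libraries, also with overlap. Of ligands of the receptors described here, Fasl was at 1.75 and 2.09 RPKM in cKO libraries, against 1.72 and 1.89 RPKM in WT libraries. Cd70 and Tnfsf4 were at or under 0.45 RPKM in every library. Tnfsf14 (LIGHT) was at 7.72 and 7.74 RPKM in cKO libraries, against 6.34 and 5.98 RPKM in WT libraries. Its genotypes did not overlap (limma, unadjusted p = 0.067, adjusted p = 0.9998). Tnfsf9, the ligand of Tnfrsf9, was at 8.08 and 3.25 RPKM in cKO libraries, against 5.25 and 3.40 RPKM in WT libraries, with overlap. These ligands were chosen as partners of the receptors after the values were seen.

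**Figure D4:**
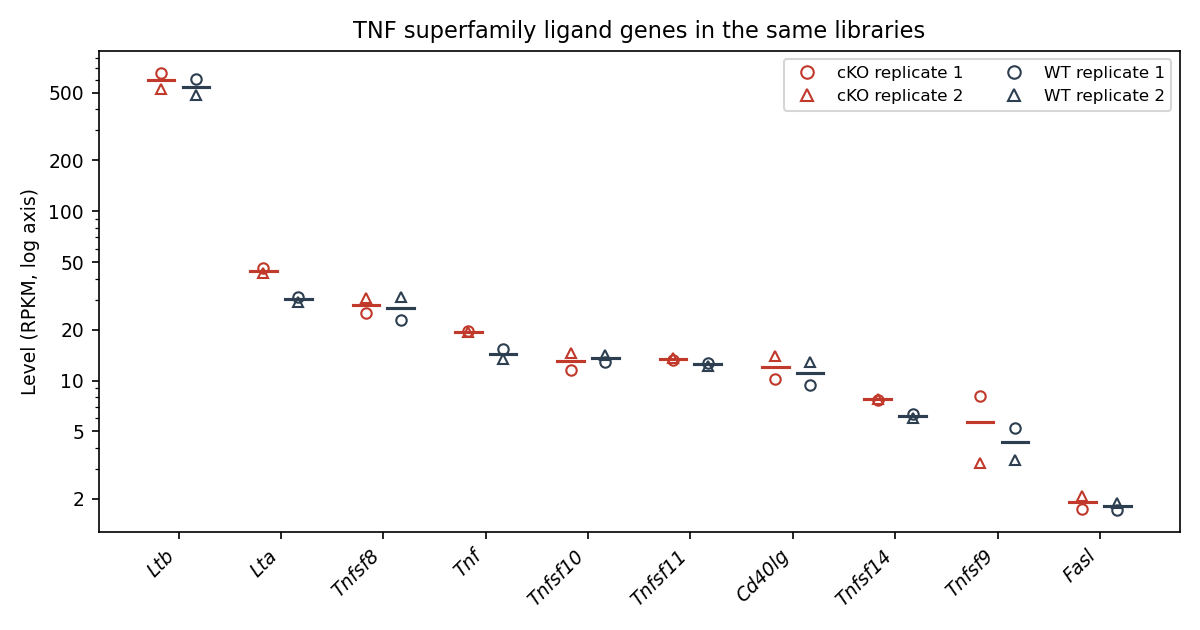
Level of the 10 tested ligand genes (RPKM, log axis) in the 2 cKO (red) and 2 WT (dark) libraries; circles are replicate 1, triangles replicate 2 and bars the mean of each genotype. The Lta points lie at 43.1 and 46.0 RPKM in cKO and at 28.9 and 31.4 RPKM in WT, and the Tnf points are likewise apart, while those of Ltb overlap.

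All 13 genes of TRAF and receptor adaptors were tested, and 0 passed. Of these, 11 were above 0, beside 59.3% of all genes, with a median log2 fold change of 0.063, beside 0.029 over all genes. With median-of-ratios scaling Traf2 and Traf3 fell below 0, at -0.036 and -0.009, and the rest kept their sign. Of the 13, 2 had cKO values above WT and 0 below, beside 17.4% and 9.01% of all genes, so the share above was near that of genes in general. Traf1, an adaptor induced by NF-kB, was the highest at 75.7 and 68.0 RPKM in cKO libraries, against 70.9 and 67.5 RPKM in WT libraries. Tank was at 31.2 and 42.7 RPKM in cKO libraries, against 29.4 and 39.2 RPKM in WT libraries, and Daxx at 39.2 and 34.1 RPKM in cKO, against 38.1 and 31.2 RPKM in WT. Siva1, whose product binds the tail of CD27, was at 7.91 and 7.64 RPKM in cKO libraries, against 6.16 and 6.28 RPKM in WT libraries (limma, unadjusted p = 0.068). Traf6 was at 12.6 and 15.1 RPKM in cKO libraries, against 14.7 and 16.4 RPKM in WT libraries, with overlap.

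Of 9 genes of death domain signalling, 8 had a row and 7 were tested; 0 passed, and 6 were above 0, beside 59.3% of all genes, with a median log2 fold change of 0.14, beside 0.029. Of the 7, 3 had cKO values above WT and 0 below, beside 17.4% and 9.01% of all genes. Casp8, the caspase recruited to Fas, was at 61.4 and 64.9 RPKM in cKO libraries, against 58.2 and 56.3 RPKM in WT libraries. Bid, a BH3-only protein cut by caspase-8, was at 11.9 and 12.9 RPKM in cKO libraries, against 10.9 and 9.61 RPKM in WT libraries. Cflar, the inhibitor of caspase-8, was at 19.4 and 21.1 RPKM in cKO libraries, against 19.4 and 21.8 RPKM in WT libraries, and Ripk3 at 30.4 and 21.5 RPKM in cKO, against 23.7 and 18.7 RPKM in WT, both with overlap.

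In the NF-kB route 16 of 16 genes were tested and 0 passed. Of these, 11 were above 0, beside 59.3% of all genes, with a median log2 fold change of 0.039, beside 0.029. Of the 16, 1 had cKO values above WT and 1 below, beside 17.4% and 9.01% of all genes. Nfkbia, the inhibitor and target of NF-kB, was at 137 and 137 RPKM in cKO libraries, against 138 and 132 RPKM in WT libraries. Nfkb1, the p105 and p50 subunit, was at 81.2 and 84.7 RPKM in cKO libraries, against 91.0 and 95.3 RPKM in WT libraries, a log2 fold change of -0.17 (limma, unadjusted p = 0.217). Ikbkb was at 58.4 and 49.4 RPKM in cKO libraries, against 58.1 and 52.4 RPKM in WT libraries, and Tab1 at 7.02 and 7.20 RPKM in cKO, against 6.34 and 5.47 RPKM in WT.

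Of 12 ubiquitin regulators of TNF receptor signalling, all were tested and 0 passed. Of these, 4 were above 0, beside 59.3% of all genes, with a median log2 fold change of -0.034, beside 0.029. Of the 12, 1 had cKO values above WT and 1 below, beside 17.4% and 9.01% of all genes. Tnfaip3 (A20), the enzyme that ends NF-kB signalling, was at 29.7 and 36.4 RPKM in cKO libraries, against 41.2 and 41.8 RPKM in WT libraries. Its log2 fold change was -0.33 with a 95% interval from -0.68 to 0.027 (limma, unadjusted p = 0.064, adjusted p = 0.9998). Otulin, which removes linear ubiquitin chains, was at 19.2 and 26.7 RPKM in cKO libraries, against 17.8 and 18.5 RPKM in WT libraries. Rbck1, a subunit of the linear ubiquitin ligase, was at 96.8 and 74.4 RPKM in cKO libraries, against 96.9 and 73.4 RPKM in WT libraries. Tnip1 was at 70.1 and 66.8 RPKM in cKO libraries, against 74.4 and 64.9 RPKM in WT libraries, and Tax1bp1 at 34.7 and 45.9 RPKM in cKO, against 38.0 and 43.6 RPKM in WT.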

How the data were processed

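The authors deposited RPKM values for 19291 RefSeq transcript rows per library, with the unit read from the values. The submitters' processing notes name HISAT2, DESeq2 and mm10, with no role; the sources used here do not give the counter. Depth was estimated from the steps between low values, each taken as a read, at 19120000 to 21320000 reads per library. At these depths 54.8% to 57.8% of the low values lay within 0.05 of a whole read, beside 10% by chance. The read counts and counting error given above are therefore approximate. The depth limits the precision of low rows. Transcript lengths and GC content came from GENCODE sequences, matched by RefSeq accession.

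Rows were named with a GRCm38.p6 RefSeq table, 16720 by accession and 1037 by name; 1534 rows without a gene name, 11.5% of the RPKM sum, stayed out. Genes averaging 1 RPKM or more entered limma (3.58.1, R 4.3.3) on log2(RPKM + 1), moderated with a trend and robustly, with a genotype term alone; p-values were adjusted by Benjamini-Hochberg. Folds on this scale understate changes of low genes. The p-values reflect only how these pools of RNA differ, and part of that may be technical. The rule for named genes took the 10 receptors, Nsd2, the Treg markers and, per list, up to 3 genes of highest level and 2 of lowest p; those named for level alone are given as levels. A gene that this rule names is not reported here. The members and lists were chosen with earlier results of these data known. Neutrophil markers were not analysed here. Alternatives were another pseudocount, filter, scaling, block, transcript sum, moderation and GC correction, and leaving out each library. Figures used matplotlib 3.10.9.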

Additional observations from a re-analysis of the deposited data

How the results depend on the processing

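No receptor passed the limma test under any of the 12 alternatives run. The count of genes called was 0 in the main test and under the other pseudocount, filters, scaling, moderation, transcript sum and GC correction. With the replicate number as a block it was 1 gene, Cxcr4 (log2 fold change -1.14, limma adjusted p = 0.0354). It was 31 without cKO replicate 1, 65 without cKO replicate 2, 67 without WT replicate 1 and 38 without WT replicate 2, where the lone library is assumed to vary like the other genotype. The labels do not say that a number marks a shared batch, and the deviations of same-numbered libraries correlated at 0.507. The block changed no receptor's call, but it narrowed the intervals of the receptors. With it the interval of Tnfrsf25 ran from 0.073 to 0.355 (limma, unadjusted p = 0.0106, adjusted p = 0.211). That of Tnfrsf4 ran from 0.015 to 0.307 (limma, unadjusted p = 0.0361, adjusted p = 0.295). Both leave out 0, and no other receptor had an unadjusted p under 0.05. Of all 10550 genes, 1635 were under it with the block and 332 without.

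The median log2 fold change over the receptors, 0.049, became 0.012 with median-of-ratios scaling and -0.007 with the GC correction, which was added after seeing the data, and ran from -0.008 to 0.111 when a library was left out. Tnfrsf4 (0.126 to 0.196) and Tnfrsf25 (0.031 to 0.397) kept their sign whichever library was left out. The others did not: Tnfrsf18 ran from -0.036 to 0.161, Tnfrsf9 from -0.084 to 0.002, Tnfrsf1a from -0.003 to 0.114, Tnfrsf1b from -0.014 to 0.214, Tnfrsf14 from -0.089 to 0.173, Tnfrsf26 from -0.109 to 0.085, Cd27 from -0.128 to 0.067 and Fas from -0.221 to 0.210. With the GC correction Tnfrsf1a was at -0.004 and Tnfrsf14 at -0.013, and with transcript rows summed Fas was at 0.037; the cause was not tested. Of 12 pathway genes chosen for low p, none changed sign, and of 15 given as levels, 13 did in some setting. The 12 were chosen by p in these same libraries, so this contrast follows in part from the choice and is no support for those genes.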
